A study of Mus musculus with 4 samples.

Results

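Metallothioneins and zinc-handling genes were described in 2 sorted populations of mouse CD4 T cells. The group holds 9 genes, chosen by symbol with the difference between the populations already known: the metallothioneins Mt1, Mt2 and Mt3, their regulator Mtf1, the zinc exporters of the Slc30 family Slc30a1 and Slc30a5, and the zinc importers of the Slc39 family Slc39a1, Slc39a6 and Slc39a10. All 9 were found among 23284 gene symbols, each as a single entry, and 8 had the mean of at least 1 FPKM needed to enter the test. FPKM are fragments scaled by transcript length and library depth, so levels of different genes can be compared per length.

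CD4 T cells from the spleen of the inbred mouse strain BALB/c had been grown under conditions that drive Th1 cells, the interferon-gamma-producing helper type, with interleukin-12 at 10 ng/ml and interleukin-2 at 15 ng/ml. One label gives 4 days of culture and another gives 5. Flow sorting then separated a CCR7hiCD137lo population from a CCR7loCD137hi one, and polyadenylated RNA was sequenced from 2 libraries of each, numbered 1 and 2. CCR7 is a homing receptor for lymph nodes and CD137 a costimulatory receptor of activated T cells, and the series concerns fatty acid synthesis and the memory potential of such cells. All groups share the strain, the culture and the cytokines, and no genotype or drug differs between them. The labels do not say whether the 2 libraries of a population came from separate mice or cultures, so every error and p-value reflects how far these samples vary, and that variation may be technical.

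Metallothioneins are very small, cysteine-rich proteins that bind zinc and copper and buffer the free metal in the cytosol. The transcription factor MTF-1, encoded by Mtf1, senses a rise in free zinc and binds metal response elements in the promoters of metallothionein genes and of the exporter gene Slc30a1. Slc30 proteins move zinc out of the cytosol, across the plasma membrane or into organelles, and Slc39 proteins move it into the cytosol. In T cells zinc influx is known to accompany receptor signalling, and glucocorticoids and oxidative stress are known to induce metallothioneins as well.

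The 3 metallothionein genes lie side by side on mouse chromosome 8 and their promoter sequences are shown because these are the listed genes with the largest differences in level. In mm10 coordinates of the deposited tables, with the start counted from 1, Mt3 spans 94152607 to 94154148, Mt2 spans 94172618 to 94173567 and Mt1 spans 94179089 to 94180327. Mt4, the fourth gene of the cluster, spans 94137204 to 94139031. All are on the plus strand. The gaps between the gene models were 13.6 kb from Mt4 to Mt3, 18.5 kb from Mt3 to Mt2 and 5.52 kb from Mt2 to Mt1. Below are the 250 bases upstream of the RefSeq start of each gene (build GRCm38.p6, the assembly of mm10, plus strand, 5′ to 3′), with Slc30a1 added as the transporter gene known to carry metal response elements. The upstream stretch of Mt3 holds no match and so has no capitals. Capitals mark matches to the metal response element core, TGCACNC or TGCGCNC, or to the antioxidant response core, TGACNNNGC, on either strand.
Mt1, chr8:94178839-94179088: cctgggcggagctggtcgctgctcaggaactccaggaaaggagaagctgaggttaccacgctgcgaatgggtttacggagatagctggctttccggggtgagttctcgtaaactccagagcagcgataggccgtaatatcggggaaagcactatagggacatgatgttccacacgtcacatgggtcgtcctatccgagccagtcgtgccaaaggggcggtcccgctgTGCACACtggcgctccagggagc
Mt2, chr8:94172368-94172617: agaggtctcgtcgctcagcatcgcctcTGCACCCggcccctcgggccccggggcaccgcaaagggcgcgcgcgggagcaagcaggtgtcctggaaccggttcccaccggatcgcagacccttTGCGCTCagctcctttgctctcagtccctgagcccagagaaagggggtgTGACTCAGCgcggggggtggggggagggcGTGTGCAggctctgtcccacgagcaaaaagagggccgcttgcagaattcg
Mt3, chr8:94152357-94152606: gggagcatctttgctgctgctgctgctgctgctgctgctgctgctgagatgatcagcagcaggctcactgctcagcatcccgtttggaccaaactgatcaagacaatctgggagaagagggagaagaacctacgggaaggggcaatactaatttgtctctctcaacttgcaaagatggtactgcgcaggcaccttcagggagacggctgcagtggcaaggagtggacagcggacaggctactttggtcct
Slc30a1, chr1:191906531-191906780: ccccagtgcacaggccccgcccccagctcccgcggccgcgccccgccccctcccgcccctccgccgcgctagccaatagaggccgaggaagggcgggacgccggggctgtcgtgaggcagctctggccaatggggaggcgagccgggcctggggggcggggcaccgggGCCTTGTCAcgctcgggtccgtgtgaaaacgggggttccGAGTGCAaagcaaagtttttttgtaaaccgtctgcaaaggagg

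Within windows of 300 bases, which also take in the bases after the start up to +50, the metal response element core was found 4 times in Mt2, 3 times in Mt1, 2 times in Slc30a1 and once each in Mt3, Mt4 and Slc30a5. Among all 32851 RefSeq windows of this length, 25.7% held at least 1 match, 7.11% at least 2, 1.97% at least 3 and 0.518% at least 4. The matches of Mt1 began at −23, +3 and +21 from the RefSeq start. Those of Mt2 began at −223, −128, −50 and +5, and the match of Mt3 at +28. GENCODE also annotates Mt1 transcripts that begin further downstream, so positions relative to the start depend on the annotation. Bases after +50 were not searched, so matches of any of the 3 motifs near those later starts may be missed. The counts for Mt1 therefore cover the window at its RefSeq start only. The antioxidant response core was found once in the windows of Mt2, Slc30a1, Slc39a1 and Slc30a5, and in 12.4% of all windows. An E-box, CACGTG, was found in the window of Slc30a5 and in 7.15% of all windows. No match to the 3 motifs lay in the windows of Mtf1 or Slc39a10, and Slc39a6, on chromosome 18, was not searched. A match describes letters in a window and shows neither binding nor use.

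**Figure D1:**
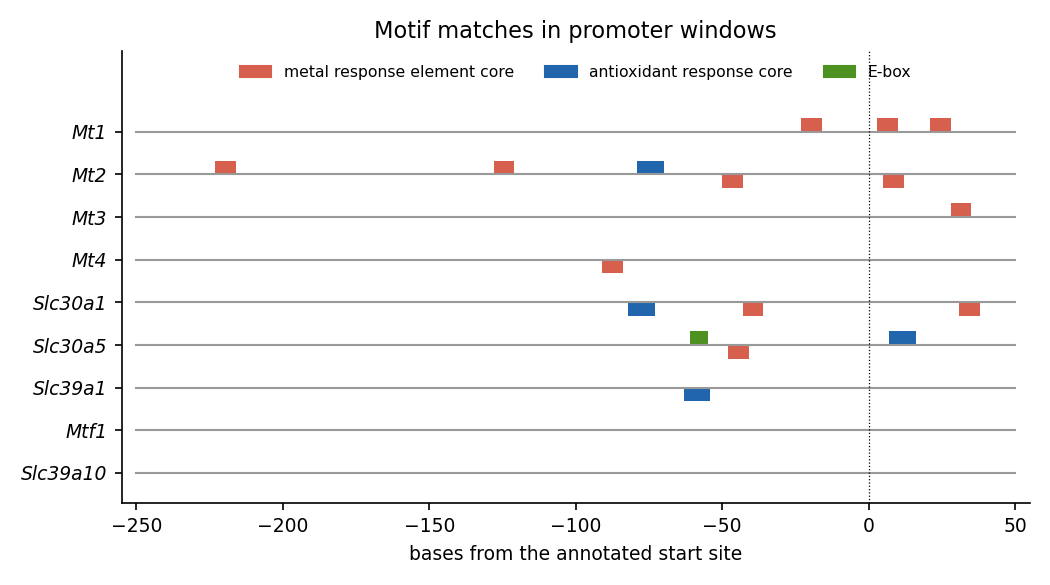
Positions of motif matches from 250 bases before to 50 bases after the RefSeq start site, 1 line per gene, with matches on the gene's strand drawn above the line and those on the other strand below it. Mt2 held 4 metal response element cores and Mt1 held 3, against 1.97% of all windows with at least 3.

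All 3 metallothioneins stood higher in both CCR7loCD137hi libraries than in either CCR7hiCD137lo library, while Mtf1 and the 5 listed transporters overlapped between the populations. Mt1, one of the 2 broadly expressed metallothioneins, was at 4.45 FPKM in replicate 1 and 17.7 FPKM in replicate 2 of CCR7hiCD137lo, and at 91.7 and 97.9 FPKM in those of CCR7loCD137hi. Pairs of values below keep this order of replicates. The populations did not overlap, and the lowest library was CCR7hiCD137lo replicate 1. Its mean was 11.1 ± 9.40 FPKM in CCR7hiCD137lo and 94.8 ± 4.39 FPKM in CCR7loCD137hi (SD, n = 2 each), which is 8.54-fold on the FPKM scale. On the log2(FPKM + 1) scale used for the fit, the fold change of Mt1 was 3.24 (SE 0.604), positive where CCR7loCD137hi is higher, and 29 of 10496 tested genes had a larger one. In these bulk samples a change in RNA per cell and a change in the share of cells that express the gene cannot be told apart.

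Mt2, the other broadly expressed metallothionein, was at 0.138 and 2.18 FPKM in CCR7hiCD137lo, compared with 19.8 and 17.5 FPKM for CCR7loCD137hi. It was thus near the bottom of the measured range in CCR7hiCD137lo replicate 1 and well expressed in both CCR7loCD137hi libraries. The means were 1.16 ± 1.45 and 18.7 ± 1.57 FPKM (SD, n = 2 each), with a log2 fold change of 3.37 (SE 0.516). Low FPKM values step by what 1 fragment is worth, and the smallest whole numbers that fit these steps (each within 0.0605 of a fragment) put Mt2 at 1 and 10 fragments in CCR7hiCD137lo and 81 and 39 in CCR7loCD137hi. Estimates from transcript length gave 1, 9, 72 and 35 fragments. With both libraries of each population summed, the Mt2 ratio per unit of depth was 20.4 (exact 95% interval 11.02 to 42.0, counting error only). Between the libraries numbered 1 the ratio was 143.5, with an interval of 25.04 to 5738 because it rests on 1 fragment. Between those numbered 2 it was 8.03 (3.94 to 18.0). The intervals of the 2 numbers do not overlap, and the summed interval does not cover that spread. Of the 588 exonic bases of Mt2, 432 are also covered on the other strand by the antisense gene Gm45774 (94170748 to 94173412), and no source used here says whether the counting used strand, so reads of the pair cannot be told apart.

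Mt3, known chiefly as the metallothionein of brain, was at 0.436 and 1.38 FPKM in CCR7hiCD137lo, compared with 6.94 and 7.11 FPKM for CCR7loCD137hi. The CCR7loCD137hi libraries were nearly equal and lay above both others. The log2 fold change was 2.12 (SE 0.295), and 72 of 10496 tested genes had a larger one. Transcript length and the approximate absolute depth put Mt3 at 3 and 6 fragments in CCR7hiCD137lo and 27 and 15 in CCR7loCD137hi. Smaller whole numbers in the same proportion would fit its steps too and would widen its intervals. With both libraries of each population summed, the ratio per unit of depth was 8.74 (exact 95% interval 4.19 to 20.4, counting error only). It was 15.95 (4.91 to 82.1) between the libraries numbered 1 and 5.15 (1.89 to 16.2) between those numbered 2. Mt4, a metallothionein of stratified epithelium, was listed at 0 in all 4 libraries. At these depths 3 fragments of its transcript of 398 nt would give 0.730 and 1.16 FPKM in CCR7hiCD137lo and 1.29 and 2.38 FPKM in CCR7loCD137hi.

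**Figure D2:**
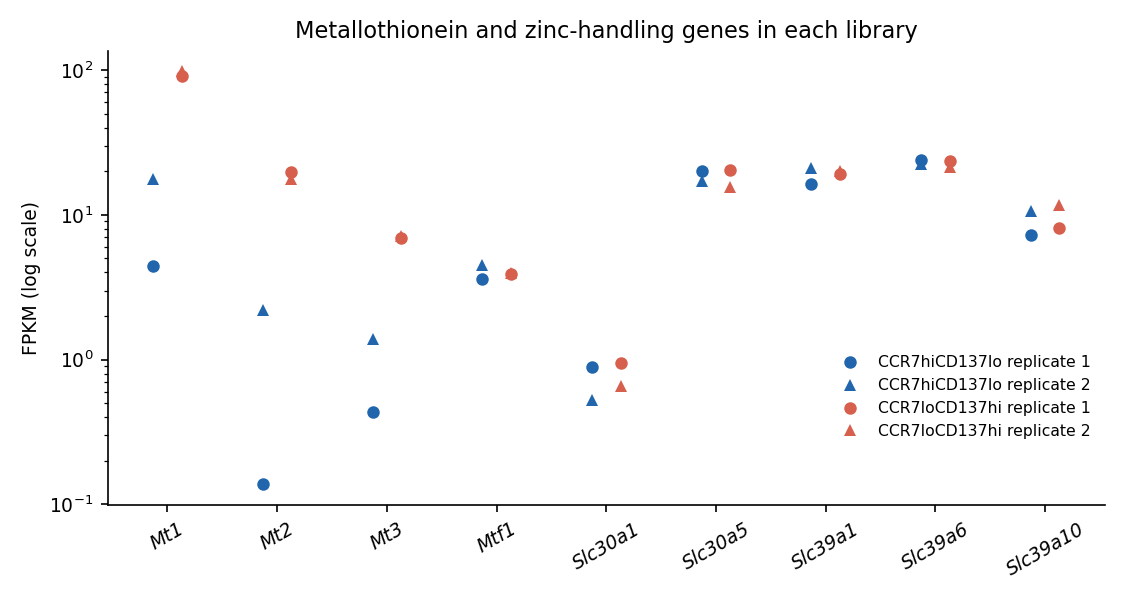
FPKM of each listed gene in each library on a log axis, with blue for CCR7hiCD137lo, red for CCR7loCD137hi, circles for replicate 1 and triangles for replicate 2. The 3 metallothioneins separate by population (Mt1 at 4.45 and 17.7 against 91.7 and 97.9 FPKM), and the other 6 genes overlap.

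No stretch of 36 nt of the Mt1 or Mt3 transcript occurred in a transcript of another gene in GENCODE, and for Mt2 the shared stretches (52.9%) were all those of the antisense gene Gm45774. The proportions between the metallothioneins were close in the 2 libraries of CCR7loCD137hi, where Mt1 stood at 4.64 and 5.58 times the FPKM of Mt2 and at 13.2 and 13.8 times that of Mt3. In CCR7hiCD137lo, Mt1 stood at 10.2 and 12.9 times the FPKM of Mt3, which rest on 3 and 6 Mt3 fragments and are imprecise. Mt1 stood there at 32.3 and 8.12 times the FPKM of Mt2, the first of these resting on the single Mt2 fragment. Summed, the 3 genes came to 5.02 and 21.3 FPKM in CCR7hiCD137lo, compared with 118.4 and 122.6 FPKM in CCR7loCD137hi. Mt1 exceeded the level of 47.1% of tested genes in CCR7hiCD137lo and 92.7% in CCR7loCD137hi.

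In CCR7hiCD137lo, replicate 2 stood above replicate 1 in all 3 metallothioneins, though for Mt3 not beyond counting error. On the log2(FPKM + 1) scale, replicate 2 was above replicate 1 by 1.78 for Mt1, 1.49 for Mt2 and 0.73 for Mt3. For Mt3 this rests on 3 and 6 fragments, with overlapping 95% counting intervals of 0.0898 to 1.27 and 0.507 to 3.01 FPKM. Between the CCR7loCD137hi libraries the corresponding differences were 0.09, −0.16 and 0.03. Tnfrsf9, which encodes CD137 and was used for the sort, had the same order, at 0.961 and 6.25 FPKM in CCR7hiCD137lo versus 158.2 and 183.8 FPKM in CCR7loCD137hi. Ccr7 was at 93.4 and 118.4 against 39.6 and 38.2 FPKM, so both sorting genes followed the labels in every library. Any part of the CD137 level in the metallothionein levels was not tested. Within number 1 the difference between the populations was 4.09, 4.19 and 2.47 for Mt1, Mt2 and Mt3, and within number 2 it was 2.40, 2.54 and 1.77. Each metallothionein was therefore higher in CCR7loCD137hi within both numbers, with the smaller difference in number 2.

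Mtf1, the metal-sensing regulator (chromosome 4, 124802549 to 124849800), overlapped between the populations. It was at 3.62 and 4.47 FPKM in CCR7hiCD137lo, compared with 3.89 and 3.97 FPKM for CCR7loCD137hi, so the CCR7loCD137hi libraries lay between the other 2. The log2 fold change was −0.03 (SE 0.174). The protein-coding gene 1110065P20Rik on the other strand covers 721 of the 8907 exonic bases of Mtf1. With a mean of 14.8 FPKM and a log2 fold change of 0.31, it was more abundant than Mtf1, and reads of the shared bases cannot be told apart.

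Slc30a1, which exports zinc across the plasma membrane and is a textbook MTF-1 target (chromosome 1, 191906781 to 191913247), was low in every library. It was at 0.888 and 0.529 FPKM in CCR7hiCD137lo, compared with 0.949 and 0.659 FPKM for CCR7loCD137hi, on about 93, 35, 56 and 21 fragments in that order. In both populations replicate 1 was the higher library, and within each number the CCR7loCD137hi library was above its counterpart by 0.05 and 0.12 on the log2 scale. Its mean missed the minimum of 1 FPKM, so its log2 fold change of 0.08 (SE 0.170) comes from a fit of all symbols without that filter, and its sign turned with quantile normalization (−0.11). The antisense gene 1700034H15Rik covers 468 of its 5244 exonic bases. Slc30a5, which loads zinc into the early secretory pathway (chromosome 13, 100802648 to 100833427), was at 20.2 and 17.2 FPKM in CCR7hiCD137lo, compared with 20.2 and 15.5 FPKM for CCR7loCD137hi (fitted log2 difference −0.07, SE 0.185). Its libraries numbered 2 were the lower ones in both populations.

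The listed importers overlapped between the populations as well. Slc39a1, a plasma membrane importer (chromosome 3, 90248192 to 90253612), was at 16.4 and 21.2 FPKM in CCR7hiCD137lo, compared with 19.3 and 20.1 FPKM for CCR7loCD137hi (fitted log2 difference 0.07, SE 0.168). Slc39a6, an importer linked to T cell receptor signalling, was at 24.0 and 22.6 against 23.7 and 21.3 FPKM (−0.05, SE 0.130), and it was the most abundant listed transporter in both populations by mean. Slc39a10, known to pair with Slc39a6 (chromosome 1, 46807544 to 46853509), was at 7.24 and 10.7 FPKM in CCR7hiCD137lo, compared with 8.10 and 11.7 FPKM for CCR7loCD137hi (0.13, SE 0.265). Its spread followed the library number, with replicate 2 above replicate 1 by 0.50 and 0.48 on the log2 scale, while the populations differed by 0.14 in number 1 and 0.13 in number 2. Summed over the 5 listed transporters, the libraries lay between 68.7 and 72.2 FPKM.

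Of the 8 listed genes tested, limma called 0 over all genes (Benjamini-Hochberg adjusted p under 0.05), where 0.0572% of all 10496 tested genes were called. Without CCR7hiCD137lo replicate 2, the log2 fold changes of Mt1 and Mt2 were 4.14 and 4.11. The library left out is the one of that population with the higher metallothionein levels. Such a fit leaves 1 library in that population, which is assumed to vary like the other population, so no call is drawn from it. The metallothioneins were 3 of 8 tested genes with both CCR7loCD137hi libraries above both CCR7hiCD137lo libraries, against 16.6% of all tested genes, and none lay below, against 21.5%. These genes were chosen with this comparison known, so the counts describe them and no test is drawn from them. The fold changes of the listed genes and of the other zinc transporters are plotted with their standard errors.

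**Figure D3:**
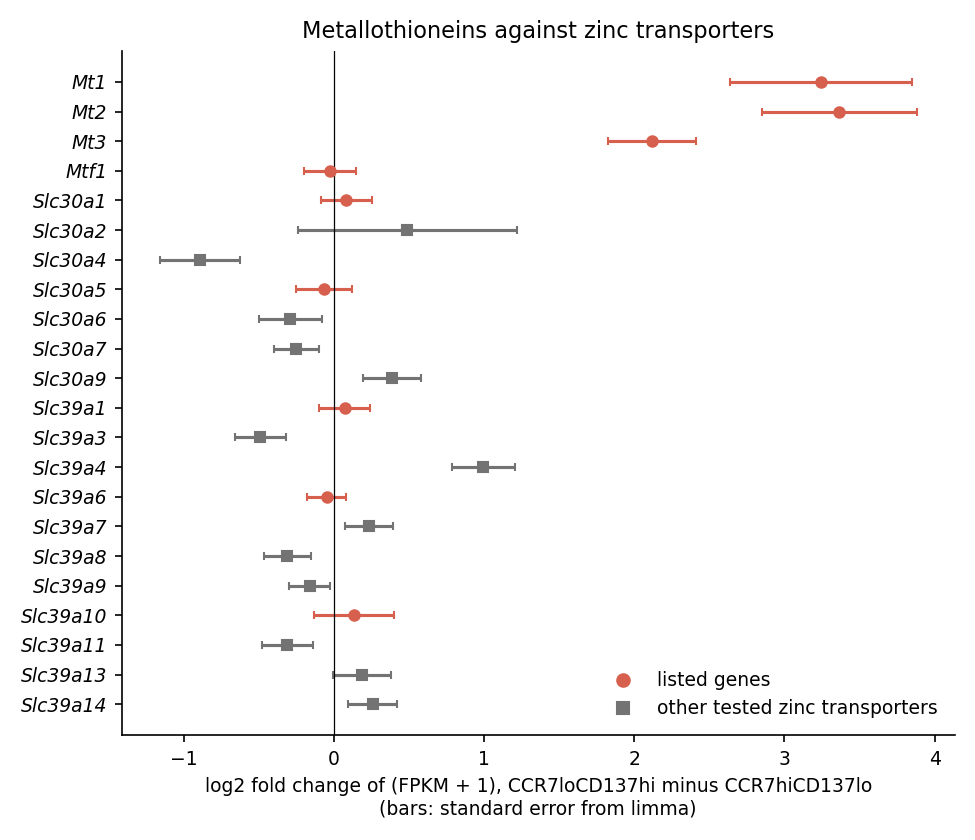
Log2 fold change on the FPKM + 1 scale between CCR7loCD137hi and CCR7hiCD137lo for the 9 listed genes (red circles) and 13 other tested zinc transporters (grey squares), with bars for the standard error from limma. Mt1, Mt2 and Mt3 lie at 3.24, 3.37 and 2.12, and the zinc transporters lie between −0.89 for Slc30a4 and 0.996 for Slc39a4.

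The remaining zinc transporters lay on both sides of 0, and none passed the test. Of 19 other genes of both families in the tables, 13 were tested, and limma called 0 of them over all genes. At an unadjusted p under 0.05 there were 3 (Slc39a4, Slc30a4 and, named here after its values were seen, Slc39a3), where 8.13% of all tested genes had one. The fit put 6 of 13 above 0 with a median log2 fold change of −0.16, against 47.9% above 0 and a median of −0.01 over all genes tested. Slc39a4, an importer that takes up dietary zinc in the intestine, was at 3.47 and 5.04 FPKM in CCR7hiCD137lo, compared with 8.77 and 9.99 FPKM for CCR7loCD137hi (fitted log2 difference 0.996, SE 0.207, limma adjusted p = 0.406). Slc30a4, which moves zinc into vesicles, had the opposite order, at 17.1 and 16.1 against 11.1 and 6.40 FPKM (−0.89, SE 0.267, limma adjusted p = 0.537). The most abundant were Slc39a7, which releases zinc from the endoplasmic reticulum, at 44.3 and 41.4 against 56.6 and 44.9 FPKM, and Slc30a9, at 15.7 and 19.4 against 20.3 and 26.3 FPKM. Slc30a8, Slc30a10 and Slc39a12 were listed at 0 in every library.

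**Figure D4:**
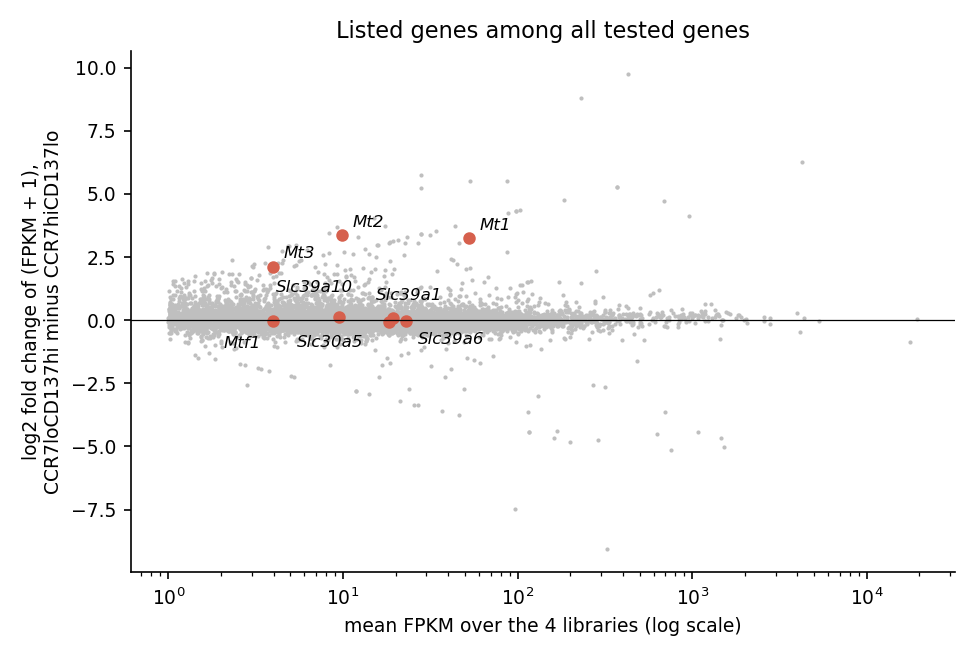
Log2 fold change on the FPKM + 1 scale against mean FPKM over the 4 libraries (log axis) for 10496 tested genes in grey, with the 8 listed genes that were tested in red. The metallothioneins stand apart from the bulk of genes of like level, and 29, 25 and 72 genes have a larger fold change than Mt1, Mt2 and Mt3.

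Genes around the cluster had smaller fitted differences, and none passed the test. Of 11 other genes whose models start within 300 kb of the start of Mt1, 7 were tested, limma called 0 of them over all genes, and 1 (Nlrc5) had an unadjusted p under 0.05, against 8.13% of all tested genes. Their log2 fold changes ran from −0.42 for Nlrc5 to 0.41 for Herpud1. The nearest tested neighbours were Nup93, a nuclear pore gene 35.5 kb downstream, at 37.1 and 27.5 against 33.1 and 21.3 FPKM, and Bbs2, a cilium gene, at 0.581 and 0.978 against 0.843 and 1.898 FPKM. These 7 neighbours were taken by position after the cluster's values had been seen.

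**Figure D5:**
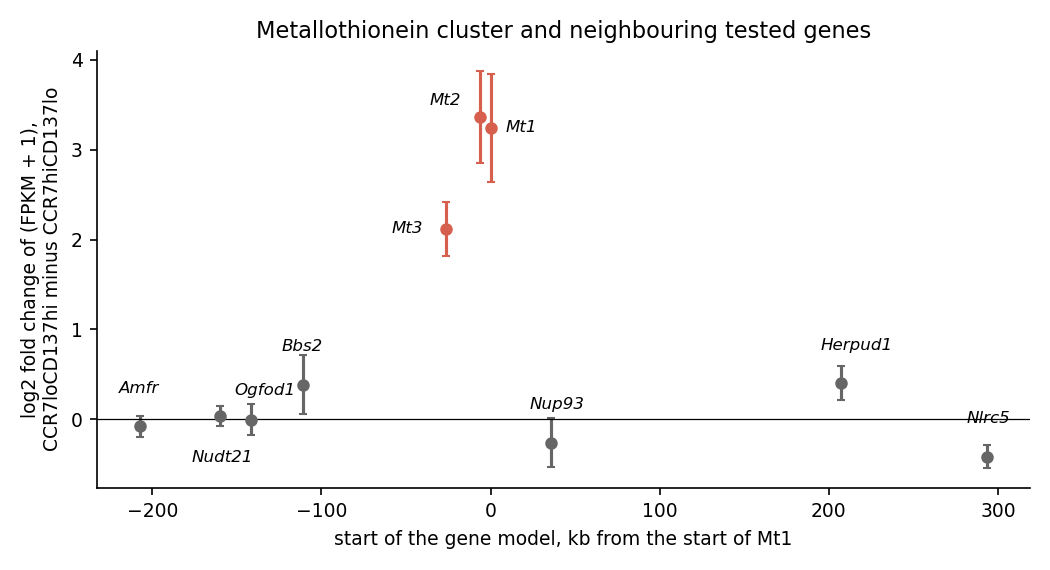
Log2 fold change on the FPKM + 1 scale, with the standard error from limma as bars, against the start of each gene model in kb from the start of Mt1. The 3 metallothioneins in red lie at 2.12 to 3.37, and the 7 tested neighbours in grey lie between −0.42 and 0.41.

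Among 7876 other tested genes with a mean of at least 5 FPKM, a few followed the metallothioneins closely over the 4 libraries. Likeness was the Euclidean distance between log2(FPKM + 1) values centred on each gene's mean, which is a description over 4 libraries only. Mt1 and Mt2 were 0.30 apart. Nearest to Mt1 were Zbtb32, a zinc finger repressor gene of activated lymphocytes (distance 0.41), Lgals3, which encodes galectin-3 (0.46), and Tnfrsf8, which encodes the receptor CD30 (0.64). Nearest to Mt2 were Lgals3 (0.39), Pglyrp1, a peptidoglycan recognition protein gene (0.44), and Zbtb32 (0.52). Lgals3 was at 5.64 and 14.2 FPKM in CCR7hiCD137lo, compared with 82.9 and 82.2 FPKM for CCR7loCD137hi. Zbtb32 was at 1.45 and 8.98 against 45.3 and 35.1 FPKM. In both genes CCR7hiCD137lo replicate 2 stood above replicate 1, which follows from choosing them by likeness over these same libraries.

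The T cell markers Cd3d, Cd3e, Cd3g, Cd4 and Cd2 were present in every library, with sums of 968.7 to 1198 FPKM. The summed level of each marker list of other cell types was higher in both CCR7loCD137hi libraries, as for the metallothioneins. Many single B cell, myeloid and erythroid markers lay near the floor, where 1 fragment on 1 kb gives 0.0857 and 0.158 FPKM in CCR7loCD137hi. Ebf1 of the B cell list and Alas2 of the erythroid list were lower by mean in CCR7loCD137hi. The 6 B cell markers summed to 0.0917 and 0.221 FPKM in CCR7hiCD137lo and to 4.86 and 0.529 FPKM in CCR7loCD137hi, with Ms4a1 and Pax5 at 0 in 3 of 4 libraries. The 5 CD8 T and NK cell markers summed to 3.29 and 6.55 FPKM against 23.0 and 10.3 FPKM, so in CCR7loCD137hi replicate 1 the sum was above the level of Mt2. Klrd1, which encodes the NK receptor chain CD94, was at 0.658 and 1.97 against 8.55 and 5.97 FPKM (fitted log2 difference 1.88, SE 0.357, limma adjusted p = 0.373), and its CCR7hiCD137lo replicate 2 was above replicate 1, as for the metallothioneins. Cd8b1, a chain of the CD8 coreceptor, was at 2.63 and 4.56 against 8.48 and 3.78 FPKM and overlapped. In CCR7loCD137hi replicate 1 both were above Mt3. Cd8a was at 0 and 0.0265 against 3.68 and 0.218 FPKM, and Ncr1 and Klrb1c were at 0 in both CCR7hiCD137lo libraries. The 7 myeloid and dendritic markers summed to 0.0648 and 0.0594 against 0.284 and 0.571 FPKM, with Csf1r and Flt3 at 0 throughout, and the 6 erythroid and platelet markers to 0.112 and 0.133 against 0.925 and 1.56 FPKM, with Hbb-b1, Pf4 and Ppbp at 0 throughout. The part of such cells in the metallothionein levels was not tested. Depth, estimated from low FPKM values, was about 20700000 and 13000000 fragments in the libraries of CCR7hiCD137lo and 11700000 and 6300000 in those of CCR7loCD137hi.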

How the data were processed

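RNA of 4 libraries was sequenced, and the authors deposited 1 table of FPKM values per library, with the columns of a Cufflinks gene table per the file headers. The submitters' processing notes list Cufflinks 2.0.2, TopHat 1.3.2 and Bowtie 0.12.8 and the build mm10, with no role or order. No source used here gives the annotation, filters, scaling or use of strand. Groups and replicate numbers came from the sample titles.

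Per symbol, the entry with the highest mean was kept (23746 entries, 23284 symbols). Genes with a mean of at least 1 FPKM entered limma (3.58.1, R 4.3.3) as log2(FPKM + 1), with a variance trend, two-sided, Benjamini-Hochberg adjustment over all genes and a threshold of 0.05. The pseudocount understates the fold of low genes. The fit was checked on simulated data. With 2 libraries a side, the smallest two-sided p of an exact permutation test is 0.333. The listed genes and gene lists were chosen with earlier results of these data known, and named genes of each list were the called ones or, with none, the 2 most abundant and the 2 with the largest fold change. Cell type markers are given by their sums, and markers at 0 were named after their values were seen, as were Cd8a, Ebf1 and Alas2.

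Relative depth came from ratios of values under 0.3 FPKM, of which 59.7% to 61.1% matched a ratio of whole fragments with terms up to 6 (tolerance 0.002, natural log), against 0.472% to 0.581% at other scalings. Relative depths were 0.631 for CCR7hiCD137lo replicate 2 and 0.564 and 0.306 for CCR7loCD137hi replicates 1 and 2, with CCR7hiCD137lo replicate 1 as 1. Absolute depth was set on 40 genes of a single exon, assuming fragments of 200 nt, and is approximate, so fragment numbers are estimates, and intervals and limits of 3 fragments cover counting error only. Promoter windows are those of RefSeq, and 8 of 9 genes had one that was searched. Python 3.11.15 with numpy 2.4.6, pandas 2.3.3, scipy 1.17.1 and matplotlib 3.10.9 was used. Alternatives were a pseudocount of 0.1, no filter or a mean of at least 5 FPKM, quantile normalization, no variance trend, summed entries, a replicate block and leaving out each library.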

Additional observations from a re-analysis of the deposited data

How the results depend on the processing

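Over all genes limma called 6 as reported, 1 with no filter, 2 with quantile normalization, 2 with no variance trend, and 12 to 30 with 1 library left out (17 and 23 without CCR7hiCD137lo replicates 1 and 2, and 12 and 30 without those of CCR7loCD137hi). With the replicate number as a block there were 42 calls. The labels do not say that equal numbers share a mouse or culture, and the numbers were not taken as pairs. The differences between numbers 1 and 2 in the 2 populations correlated at 0.214 over 10496 genes, which are not independent. Of the other zinc transporters 0 were called in every fit run, and under the block none of the listed genes was called either. Mt1, Mt2 and Mt3 kept their direction with quantile normalization. With the smaller pseudocount or 1 library left out their direction could not turn, since the populations do not overlap in these genes. Their log2 fold changes with 1 library left out ranged from 2.35 to 4.14, 2.62 to 4.11 and 1.75 to 2.48. With a pseudocount of 0.1, Mt2 and Mt3 stood at 4.67 and 3.0, as a smaller pseudocount shrinks low genes less. The 6 other genes changed sign without single libraries, with ranges of −0.15 to 0.0948 for Mtf1, −0.0700 to 0.23 for Slc30a1, −0.25 to 0.11 for Slc30a5, −0.10 to 0.25 for Slc39a1, −0.12 to 0.0255 for Slc39a6 and −0.12 to 0.39 for Slc39a10. Slc30a1 also changed sign with quantile normalization (−0.11), and the cause was not tested. The other filters, the missing trend, the block and summed entries leave a listed gene's difference of means as it is by construction (43 values), so they say nothing about its stability. Of the values that could differ, 42 moved by less than the replicate spread, 2 by more and 10 changed sign. Depth limits Mt2 and Mt3 most, at 1 to 10 fragments in CCR7hiCD137lo.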

Other observations

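Other genes that handle metals or respond to the known inducers of metallothioneins had no call of limma over all genes (0.0572% of all tested genes were called). Over all genes tested, 47.9% were fitted above 0 and 8.13% had an unadjusted p under 0.05, and the counts of each list below stand beside these shares. Of 9 copper-handling genes tested, 8 were fitted above 0 with a median log2 fold change of 0.33, against −0.01 over all genes, and 2 had an unadjusted p under 0.05. Ccs, the copper chaperone of superoxide dismutase, was at 24.3 and 31.5 FPKM in CCR7hiCD137lo, compared with 73.2 and 59.6 FPKM for CCR7loCD137hi (fitted log2 difference 1.23, SE 0.191, limma adjusted p = 0.315). Sod1, the enzyme it loads, was at 292.1 and 265.9 against 355.2 and 348.1 FPKM. Cox17, a copper chaperone of the respiratory chain, was at 165.2 and 226.1 against 233.1 and 266.0 FPKM, and Atp7b, a copper pump, at 0.386 and 1.05 against 0.969 and 2.17 FPKM.

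Of 6 glucocorticoid-responsive genes tested, 5 were fitted above 0 (median 0.52), and 2 had an unadjusted p under 0.05. Sgk1, a kinase gene, was at 2.75 and 4.67 against 11.1 and 14.8 FPKM (1.58, SE 0.271, limma adjusted p = 0.346), and Tsc22d3, which encodes GILZ, at 2.36 and 8.89 against 7.27 and 19.7 FPKM. Dusp1, a phosphatase gene, was at 20.0 and 20.6 against 28.3 and 32.1 FPKM, while Fkbp5, a chaperone of the receptor, was at 31.7 and 33.2 against 34.2 and 33.5 FPKM. Of 10 NRF2 and oxidative stress genes tested, 4 were fitted above 0 (median −0.05), and 2 had an unadjusted p under 0.05. The list also holds Nqo1 and Srxn1, named here after their values were seen, which missed the minimum mean of 1 FPKM. Nqo1 was at 0.395 and 0.512 against 1.72 and 1.05 FPKM, and Srxn1 at 0.203 and 0.612 against 1.73 and 1.26 FPKM. Hmox1, heme oxygenase 1, was at 4.23 and 10.0 against 18.1 and 23.0 FPKM (1.495, SE 0.394, limma adjusted p = 0.497), and Gclm, a glutathione synthesis subunit, at 9.82 and 8.42 against 15.1 and 11.6 FPKM. The abundant Prdx1 was at 306.1 and 232.1 against 327.7 and 201.0 FPKM, and Txn1 at 246.7 and 208.0 against 308.7 and 223.4 FPKM. Of 4 MTF-1 targets outside zinc transport, 1 was fitted above 0 (median −0.07) and 0 had an unadjusted p under 0.05. That 1 was Ndrg1, a gene also induced by hypoxia, at 47.5 and 83.3 against 89.0 and 210.8 FPKM. Sepw1, a selenoprotein gene, was at 211.6 and 128.9 against 194.3 and 120.9 FPKM, and Gclc, which the NRF2 list also holds and which encodes the other glutathione synthesis subunit, at 19.0 and 12.7 against 15.0 and 10.0 FPKM.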
